A study of Homo sapiens with 2 samples.

Results

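The genes described here are 10 markers and lineage genes of ovarian tumours: MUC16, MUC1, MSLN, WFDC2, SLPI, PAX8, SOX17, MECOM, WT1 and EMX2. They were taken by gene name from the authors' table and are 10 of the 57110 gene entries measured. The study mixed SK-OV-3, COV504 and IGROV1 cells, which are established lines from ovarian cancers, at 1:1:1. From the mix came 1 single-cell RNA library read on an Illumina machine and 1 read on a PromethION, a nanopore sequencer that can read a cDNA from end to end. No treatment or genotype is named in the labels, and for the Illumina library only the barcode list was used. With 1 library there is no replicate, so no difference below carries a test, and each 95% interval covers counting error only.

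Epithelial ovarian cancers carry surface glycoproteins and release small proteins that are measured in the clinic. MUC16 is the protein behind the CA125 blood test and binds mesothelin, the product of MSLN, while WFDC2 encodes the blood marker HE4. PAX8, SOX17 and EMX2 are transcription factors of the Mullerian duct and urogenital tract from which the fallopian tube epithelium arises, and WT1 is a transcription factor used to recognise serous tumours.

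The PromethION matrix held 2462 barcodes and 13052893 counts, with a median of 4914.5 counts per barcode, and every barcode was also in the Illumina list. Barcodes carry no line label, so lines were assigned from genes that are not members. A barcode of at least 1000 counts joined a line when 1 of 3 gene sets held at least 75% of the counts of the 3 sets. ERBB2, NNMT, TSPAN1 and DHRS2 gave the ERBB2-high line with 648 barcodes, RARRES2 and TMEM100 gave the RARRES2-high line with 473, and FOLR1, CLDN3, DEFB1 and CXCL14 gave the FOLR1-high line with 765. Another 243 barcodes joined no line, 208 of them because they held counts of several sets. WFDC2 was counted in 18.5% of these 243 barcodes and in 17.1% of RARRES2-high ones, and with CLDN3 left out of the sets the RARRES2-high line held 301 WFDC2 counts in place of 216. The neighbours of ERBB2, namely GRB7, MIEN1, STARD3 and PGAP3, had their highest level in the ERBB2-high line, and CDKN2A had 1 count there, so that line is SK-OV-3-like. CDKN2A also had 0 counts in the RARRES2-high line, and the other lines are called by their leading genes only. Levels are given as CPM, the counts of a gene scaled to 1e6 counts of the line. They are used to compare a gene between lines and not 1 gene with another.

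The lines also differed in make-up. Mitochondrial genes held 2.93% of the counts in the ERBB2-high line, 3.11% in the RARRES2-high line and 7.07% in the FOLR1-high line, and ribosomal protein genes held 12.1%, 14.7% and 26.9%. Epithelial keratins were counted in all 3 lines: KRT18 was at 552, 4784 and 1146 CPM in the same order. Among 10 markers of blood, vessel and connective tissue cells, COL1A1 alone had 50 counts or more, and the summed level of these markers ran from 6.20 to 96.7 CPM.

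The promoters of WFDC2 and MUC1 are shown first because MUC1 was at a higher level in the RARRES2-high barcodes with WFDC2 counts than in those without, as described further on. Of the RARRES2-high barcodes with MUC1, 39 held WFDC2 counts and 42 did not. The sequences are RefSeq's on GRCh38.p14, read 5′ to 3′ on the gene's strand and ending before the first listed start. WFDC2 lies at chr20:45469503-45469705 on the plus strand and MUC1 at chr1:155192916-155193165 on the minus strand. Capitals mark TATAAA and GGGCGG, searched on both strands, so that CCGCCC is GGGCGG on the other strand.
WFDC2: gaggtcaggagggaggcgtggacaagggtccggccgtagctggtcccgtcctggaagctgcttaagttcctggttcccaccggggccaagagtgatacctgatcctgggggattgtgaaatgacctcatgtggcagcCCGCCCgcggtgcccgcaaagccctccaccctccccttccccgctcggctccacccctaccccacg
MUC1: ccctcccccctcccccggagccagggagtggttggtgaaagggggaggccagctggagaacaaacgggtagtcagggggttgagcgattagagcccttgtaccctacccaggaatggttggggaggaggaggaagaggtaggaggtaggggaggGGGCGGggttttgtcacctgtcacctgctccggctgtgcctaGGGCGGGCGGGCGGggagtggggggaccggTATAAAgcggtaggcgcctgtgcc
The table has 2 MUC1 entries, and the one used starts where the authors' MUC1 entry does. The MUC1 window held TATAAA at position -24 from the RefSeq start and 4 copies of GGGCGG, at -96, -54, -50 and -46, the last 3 of which overlap. The WFDC2 window held 1 GGGCGG and 0 copies of TATAAA. It ends before the authors' WFDC2 start, which lies ahead of RefSeq's, and so has 203 bases. The GGGCGG is at -113 from the RefSeq start. The whole 250 bases before that start held no further match. Over the 250 bases before the start, 10.7% of the 35116 RefSeq promoters held TATAAA and 42.6% held GGGCGG. The matches describe letters only.

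Among the surface glycoproteins, the RARRES2-high line had the highest level of MUC16, MUC1 and MSLN. MUC16, a very large membrane mucin, had 46 counts there, or 13.6 CPM (9.97 to 18.2). It had 0 counts in the ERBB2-high line, which allows up to 1.07 CPM, and 3 counts in the FOLR1-high line, or 0.664 CPM (0.137 to 1.94). Its level in the RARRES2-high line was 15.6-fold that of the ERBB2-high line when 0 is set to a floor of 3 counts per line (the exact interval began at 12.2). It was 20.5-fold (6.59 to 103) that of the FOLR1-high line. The 46 counts came from 35 barcodes with at most 3 each. MUC16 was therefore thinly counted.

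MUC1, a shorter membrane mucin that carries O-linked sugars, was at 36.1 CPM (30.0 to 43.1; 122 counts) in the RARRES2-high line. It was at 11.9 CPM (8.55 to 16.2; 41 counts) in the ERBB2-high line and at 0.886 CPM (0.241 to 2.27; 4 counts) in the FOLR1-high line. The 3 intervals did not overlap. The RARRES2-high level was 3.03-fold (2.11 to 4.43) the ERBB2-high level and 40.8-fold (15.5 to 152) the FOLR1-high level.

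MSLN encodes mesothelin, a surface protein held by a lipid anchor and made by mesothelium and many ovarian carcinomas. Its level was 16.9 CPM (12.8 to 21.9; 57 counts) in the RARRES2-high line and 3.20 CPM (1.60 to 5.72; 11 counts) in the ERBB2-high line. The FOLR1-high line had 2 counts, or 0.443 CPM (0.0537 to 1.60). The RARRES2-high level was 5.28-fold (2.74 to 11.2) the ERBB2-high level and 38.1-fold (10.1 to 322) the FOLR1-high level. The order of MUC1 and MSLN was thus the same, RARRES2-high above ERBB2-high above FOLR1-high, while the lower pair of MSLN intervals touched.

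WFDC2 and SLPI encode small secreted proteins with the WAP fold, a cysteine-rich domain found in protease inhibitors, and SLPI inhibits leukocyte elastase. WFDC2 was at 63.9 CPM (55.7 to 73.1; 216 counts) in the RARRES2-high line and at 8.42 CPM (5.64 to 12.1; 29 counts) in the ERBB2-high line. The FOLR1-high line was also at 8.42 CPM (5.96 to 11.6; 38 counts). The RARRES2-high level was 7.59-fold (5.14 to 11.6) the ERBB2-high level.

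The 38 WFDC2 counts of the FOLR1-high line were not spread like those of the other lines. One barcode of 20495 counts held 33 of them, with 18 of its 20 line-gene counts in the FOLR1-high set and with 0 counts of MUC1. Scrublet, a caller of barcodes that hold 2 cells, called this barcode a doublet. Without it WFDC2 was at 1.11 CPM in the line and the RARRES2-high level was 57.5-fold that value, in place of 7.60-fold (5.36 to 11.0). In the ERBB2-high line the 29 counts lay in 26 barcodes.

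SLPI was highest in the ERBB2-high line, and not in the RARRES2-high line as WFDC2 was. It was at 1834 CPM (1789 to 1879; 6312 counts) in the ERBB2-high line, at 384 CPM (363 to 405; 1297 counts) in the RARRES2-high line and at 98.3 CPM (89.4 to 108; 444 counts) in the FOLR1-high line. The intervals were far apart. The ERBB2-high level was 4.78-fold (4.50 to 5.07) the RARRES2-high level and 18.6-fold (16.9 to 20.6) the FOLR1-high level, and the RARRES2-high level was 3.90-fold (3.50 to 4.36) the FOLR1-high level. With mitochondrial and ribosomal protein genes left out of the totals, these ratios were 4.62, 14.5 and 3.14. The spread over barcodes differed as well: the 5% of barcodes with most SLPI held 22.9% of the counts in the ERBB2-high line, 43.7% in the RARRES2-high line and 79.7% in the FOLR1-high line.

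**Figure D1:**
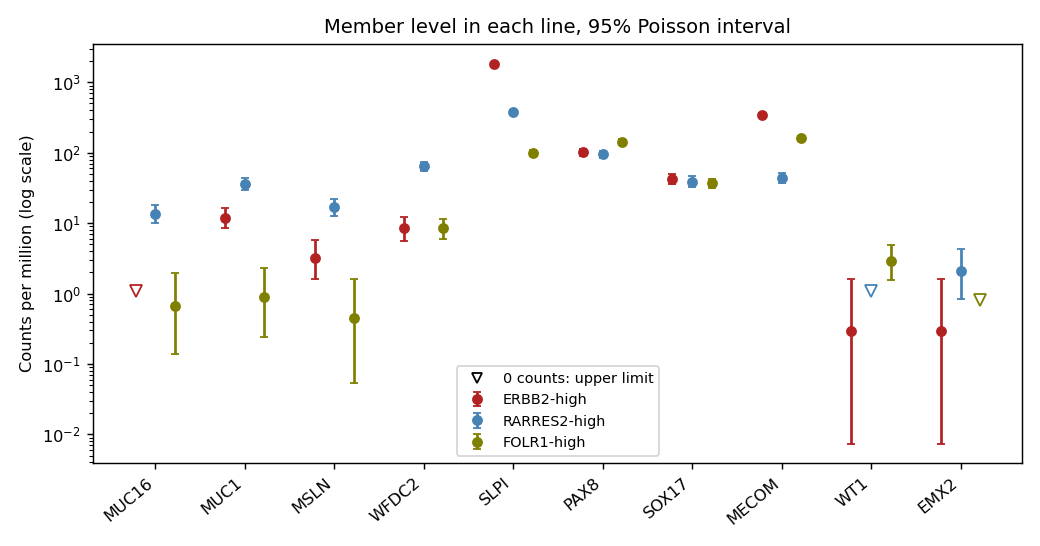
Level of each of the 10 genes in each line, in CPM on a log scale, with exact 95% Poisson intervals; an open triangle marks the upper limit where a line had 0 counts. MUC16, MUC1, MSLN and WFDC2 were highest in the RARRES2-high line, SLPI and MECOM in the ERBB2-high line, and SOX17 lay between 36.8 and 42.1 CPM in all 3.

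The transcription factors followed other patterns. PAX8, the lineage factor of Mullerian and kidney epithelium, was counted in every line. Its level was 143 CPM (132 to 154; 645 counts) in the FOLR1-high line, 101 CPM (91.0 to 113; 349 counts) in the ERBB2-high line and 95.03 CPM (84.9 to 106; 321 counts) in the RARRES2-high line. The FOLR1-high level was 1.41-fold (1.24 to 1.61) and 1.5-fold (1.31 to 1.72) those of the other lines, which did not differ from each other beyond counting error (1.07-fold, 0.914 to 1.25). With mitochondrial and ribosomal protein genes left out of the totals, it was 1.81-fold the ERBB2-high and 1.87-fold the RARRES2-high level. PAX8-AS1, a non-coding gene at the PAX8 locus, had 4 to 19 counts per line. No source used here gives the use of strand in counting, so reads of overlapping genes on opposite strands may not be told apart.

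SOX17, a transcription factor of endoderm, vessels and fallopian tube epithelium, was the most even member. It was at 42.1 CPM (35.6 to 49.6; 145 counts) in the ERBB2-high line, 38.8 CPM (32.4 to 46.0; 131 counts) in the RARRES2-high line and 36.8 CPM (31.4 to 42.8; 166 counts) in the FOLR1-high line. Every pairwise ratio had an interval that included 1: 0.852 to 1.39 for the ERBB2-high over the RARRES2-high line, 0.910 to 1.44 for the ERBB2-high over the FOLR1-high line and 0.832 to 1.33 for the RARRES2-high over the FOLR1-high line. A difference within the bounds of its pair was not detectable at this depth.

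MECOM encodes the zinc-finger factor EVI1 and, from a distal start, a longer form with a PR domain. It was at 341 CPM (322 to 361; 1175 counts) in the ERBB2-high line, 159 CPM (148 to 171; 719 counts) in the FOLR1-high line and 44.4 CPM (37.6 to 52.1; 150 counts) in the RARRES2-high line. No 2 of these intervals overlapped. The ERBB2-high level was 7.69-fold (6.48 to 9.17) the RARRES2-high level and 2.14-fold (1.95 to 2.36) the FOLR1-high level, which in turn was 3.59-fold (3 to 4.31) the RARRES2-high level. With mitochondrial and ribosomal protein genes left out of the totals, these ratios were 7.43, 1.67 and 4.46.

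WT1 and EMX2 were at or near the limit of detection. WT1 had 13 counts in the FOLR1-high line, or 2.88 CPM (1.53 to 4.92), 1 in the ERBB2-high line and 0 in the RARRES2-high line, which allows up to 1.09 CPM. EMX2, a homeobox factor of urogenital development, had 7 counts in the RARRES2-high line, or 2.07 CPM (0.833 to 4.27), 1 in the ERBB2-high line and 0 in the FOLR1-high line. With 0 set to the floor of 3 counts, the FOLR1-high level of WT1 was 3.24-fold the RARRES2-high level, and the exact interval of that ratio began at 2.28.

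These values can be set beside those of all genes. A gene entry was compared where the pair of lines held at least 50 counts of it, and called where the CPM ratio was at least 4. Between the ERBB2-high and RARRES2-high lines 7 members were compared: MECOM and SLPI were called higher in the ERBB2-high line, beside 5.74% of all 9129 entries, and WFDC2 and MSLN were called higher in the RARRES2-high line, beside 4.72%. For the ERBB2-high over the FOLR1-high line 1 of 5 members, SLPI, was called, beside 7.81% of 9228 entries, and 0 members were called the other way, beside 3.45%. For the RARRES2-high over the FOLR1-high line 3 of 7 members, MUC1, WFDC2 and MSLN, were called, beside 8.43% of 9091 entries, and 0 the other way, beside 4.88%. MUC16, WT1 and EMX2 had too few counts to be compared. The median absolute log2 difference of the members was 2.26, 0.50 and 1.97 for these 3 pairs, against 0.68, 0.72 and 0.68 over all entries compared. Without the barcode called a doublet, WFDC2 had 29 ERBB2-high and 5 FOLR1-high counts. It would then not be compared in that pair, and the median of 0.50 was not recomputed.

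The choice of line genes touched some of these calls. With barcodes held to 90% instead of 75% of line-gene counts, the RARRES2-high line kept 285 barcodes, its MUC16, MUC1 and SLPI levels were 4.98, 20.5 and 242 CPM, and the ERBB2-high level of SLPI was 7.86-fold that of the RARRES2-high line. With CLDN3 left out of the FOLR1-high set, which was tried once the data had been seen, the RARRES2-high line had 534 barcodes, its SLPI level was 459 CPM, and the same ratio was 3.94, under the 4-fold limit. The RARRES2-high over FOLR1-high ratio of SLPI, 3.90 before, was 5.29 without CLDN3 and 4.47 without doublets, each past 4-fold. The RARRES2-high over ERBB2-high ratio of MUC1 was 1.83 at 90% and 3.41 without CLDN3. The same ratio of MUC16 at 90% was 4.60 on 9 and 0 counts, with 0 set to the floor of 3 counts and no interval computed. MSLN at 90% was 5.56-fold higher but fell under 50 counts over the pair. With at least 10 line-gene counts per barcode, the RARRES2-high over FOLR1-high ratio of WFDC2 was 3.85, under the 4-fold limit, and at 90% it was 5.06, against 7.60 as first given. The FOLR1-high line kept 38 and 37 WFDC2 counts in these settings, among them the 33 of the barcode called a doublet. Without that barcode alone the ratio was 57.5. Without doublets it was 96.4, with 1 FOLR1-high count set to the floor of 3. MECOM moved little: its ERBB2-high over RARRES2-high ratio was 7.62 at 90% and 7.86 without CLDN3.

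The share of barcodes with at least 1 count was also compared. SLPI was counted in 83.2% of ERBB2-high, 50.1% of RARRES2-high and 13.2% of FOLR1-high barcodes. Median depth was 4953, 6262 and 5289 counts, so barcodes were also thinned to 2000 counts, which left out 42, 30 and 32 shallower barcodes. SLPI was then counted in 76.4%, 29.3% and 8.32% of barcodes, MECOM in 47.0%, 8.58% and 25.2%, and PAX8 in 18.2%, 15.8% and 23.7%. The unthinned shares were 71.8%, 23.7% and 52.7% for MECOM and 37.8%, 41.4% and 52.9% for PAX8. WFDC2 was counted in 8.35% of thinned RARRES2-high barcodes (17.1% before thinning), against 0.660% and 0.273% in the ERBB2-high and FOLR1-high lines (4.01% and 0.392% before thinning). The thinned intervals of the last 2 lines, 0.180% to 1.68% and 0.0331% to 0.982%, overlapped.

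The 84 barcodes of under 100 counts held 4185 counts together, among which PAX8 had 1 and the other members 0. A count of 0 there still allows up to 882 CPM, so these barcodes are too shallow to show how much free RNA of these genes was present. In the line with the fewest, MUC16 was counted in 0 of 648 barcodes, MUC1 in 4 of 765 and WFDC2 in 3 of 765.

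**Figure D2:**
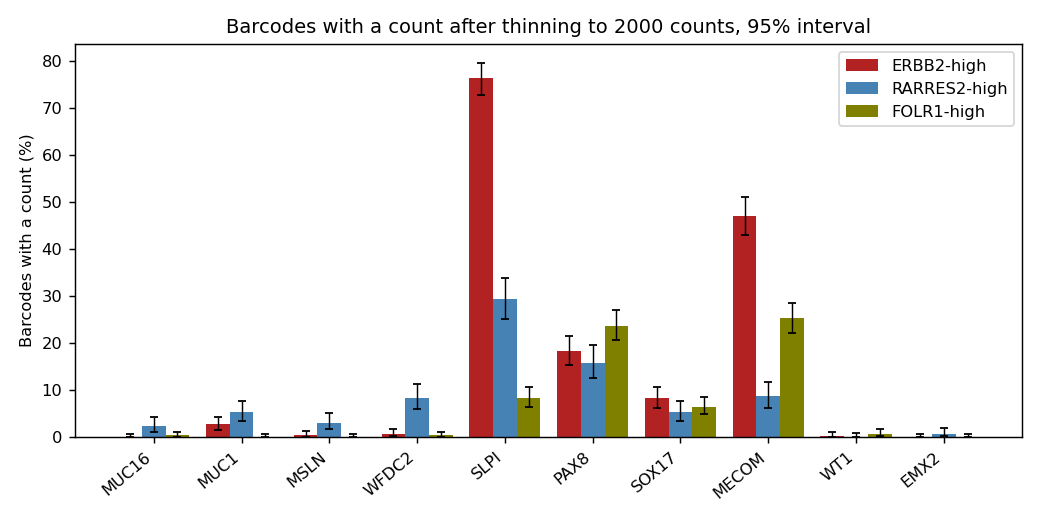
Percent of barcodes with at least 1 count of each gene in each line after thinning every barcode to 2000 counts, with exact 95% Clopper-Pearson intervals. SLPI stands at 76.4% in the ERBB2-high line and 8.32% in the FOLR1-high line, while SOX17 lies between 5.19% and 8.25%.

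Within the RARRES2-high line, WFDC2 was counted in 81 of 473 barcodes, and these barcodes also held more of other markers. The split by WFDC2 was chosen after seeing the data. In the 392 barcodes with 0 WFDC2 counts, the 54 with 1 or 2 and the 27 with 3 or more, SLPI was at 212 CPM (195 to 231), 711 CPM (638 to 789) and 1509 CPM (1363 to 1666). MUC1 was at 20.2 CPM (15.1 to 26.4), 75.1 CPM (52.9 to 104) and 124 CPM (84.9 to 175). MUC16 was at 9.13 CPM (5.85 to 13.6), 16.2 CPM (7.01 to 32.0) and 54.3 CPM (29.7 to 91.1). Levels of these 3 genes thus went up with the WFDC2 count, and the intervals of the outer groups did not overlap.

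LCN2 and CEACAM6, named after their values were seen, are given only as a description. LCN2, an iron-binding lipocalin, was at 55.9 CPM (47.3 to 65.8), 489 CPM (430 to 555) and 1602 CPM (1451 to 1764), and CEACAM6, an adhesion molecule, at 79.5 CPM (69.1 to 91.1), 254 CPM (211 to 302) and 365 CPM (295 to 446). CLDN3, a tight-junction protein, was at 59.4, 134 and 171 CPM, but it is a line gene whose counts the line rule limits in these barcodes, so its values support nothing. Comparing barcodes with and without WFDC2, SLPI differed 4.64-fold (4.15 to 5.19), MUC1 4.56-fold (3.14 to 6.65) and LCN2 15.6-fold (13.0 to 18.8).

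SOX17 had the same order, at 32.3 CPM (25.8 to 40), 52.8 CPM (34.5 to 77.4) and 77.6 CPM (47.4 to 120). PAX8 was at 97.0, 87.3 and 89.2 CPM and MECOM at 47.6, 32.5 and 34.9 CPM, neither with that order. MSLN was at 14.5 CPM (10.2 to 19.8), 26.4 CPM (14.1 to 45.1) and 23.3 CPM (8.54 to 50.7), with overlapping intervals. Of the genes outside the 10, KRT7 was at 719 CPM (687 to 752), 593 CPM (527 to 665) and 597 CPM (507 to 699), and RARRES2 at 1618, 1734 and 1788 CPM. Median depth also differed along the groups, from 6108.5 to 7968 and 9145 counts, and the part of depth in these differences was not tested.

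In the 26 ERBB2-high barcodes with WFDC2 the pattern was not seen for MUC1 or LCN2. MUC1 was at 12.2 CPM (8.74 to 16.7) without WFDC2 and at 5.80 CPM (0.147 to 32.3) with it, and LCN2 at 19.9 CPM (15.3 to 25.3) and 11.6 CPM (1.40 to 41.9). SLPI was at 1790 CPM (1744 to 1836) and 2662 CPM (2424 to 2917). The MUC1 and LCN2 values with WFDC2 rest on 1 and 2 counts.

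**Figure D3:**
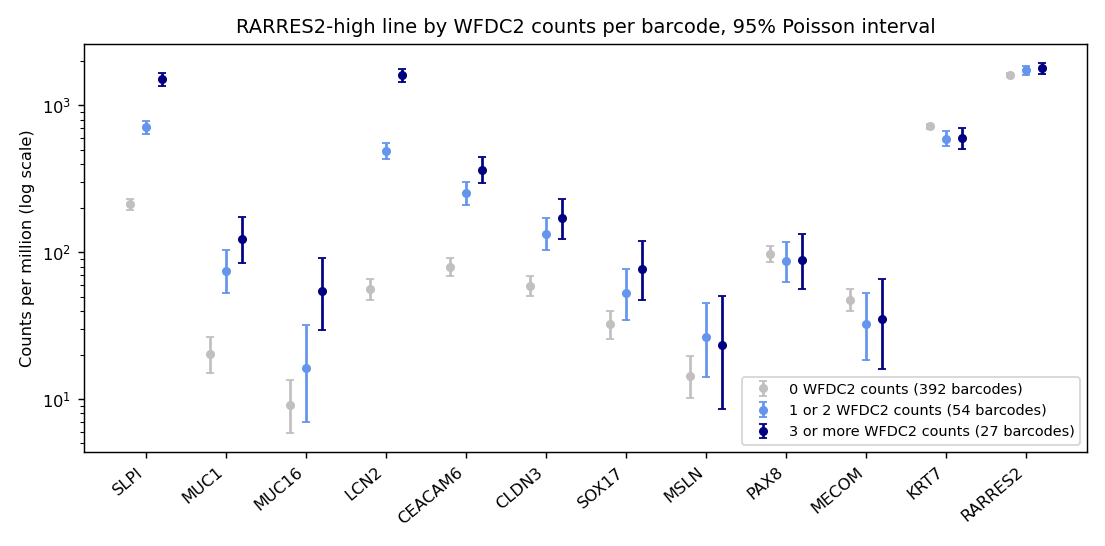
Level of 12 genes in RARRES2-high barcodes grouped by WFDC2 counts, in CPM on a log scale, with exact 95% Poisson intervals. SLPI goes from 212 to 1509 CPM and LCN2 from 55.9 to 1602 CPM from the lowest to the highest group, while PAX8 stays between 87.3 and 97.0 CPM.

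Across barcodes within a line, the members counted in at least 30% of barcodes were weakly related on the log(CPM + 100) scale. Spearman's rho was 0.073 between PAX8 and MECOM and 0.12 between MECOM and SLPI in the 648 ERBB2-high barcodes, and 0.12 between PAX8 and MECOM in the 765 FOLR1-high barcodes. These barcodes share 1 library. For SLPI in the RARRES2-high line the highest values among 2636 genes belonged to KRT19 (0.46), FTH1 (0.45), PPDPF (0.41) and EPCAM (0.39), beside a median absolute rho of 0.052.

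In the FOLR1-high line, barcodes were further divided by 2 genes that are not members, the defensin DEFB1 and the chemokine CXCL14. A barcode with at least 5 counts of the pair was put in the DEFB1 state where CXCL14 held at most 25% of them (43 barcodes, median depth 6754) and in the CXCL14 state where it held at least 75% (165 barcodes, median depth 5090). SLPI was at 335 CPM (275 to 405; 107 counts) in the DEFB1 state and at 35.3 CPM (24.3 to 49.5; 33 counts) in the CXCL14 state, a 9.50-fold difference (6.38 to 14.5). It was counted in 24 of 43 and 6 of 165 barcodes, and 1 barcode held 31 of the 107 counts and another 16 of the 33. The 5 barcodes with most SLPI held 67 of the 107 counts and 32 of the 33, so few barcodes carried both levels. The barcode with 16 SLPI counts had a depth of 12388 counts. A barcode of that depth also held 7 of the 8 LCN2 counts of the CXCL14 state. In the whole line such a barcode held 10 of 31 KRT7 counts and 5 of 11 RARRES2 counts. A mix of lines in it was not tested. SLPI, MECOM and PAX8 were the only members with at least 50 counts over the 2 states. SLPI was called at 4-fold, beside 1.28% of 2978 entries in that direction.

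MECOM went the other way, and PAX8 did not differ beyond counting error. MECOM was at 119 CPM (84.2 to 163; 38 counts) in the DEFB1 state and 236 CPM (206 to 269; 221 counts) in the CXCL14 state, which was 1.98-fold higher (1.40 to 2.88). None of SLPI, MECOM and PAX8 was past 4-fold in the CXCL14 direction, beside 1.41% of entries. PAX8 was at 147 CPM (108 to 196) and 146 CPM (123 to 173), a ratio of 1.01 (0.706 to 1.41), and SOX17 at 56.4 CPM (33.4 to 89.1) and 32.0 CPM (21.6 to 45.7), a ratio of 1.76 (0.923 to 3.26).

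**Figure D4:**
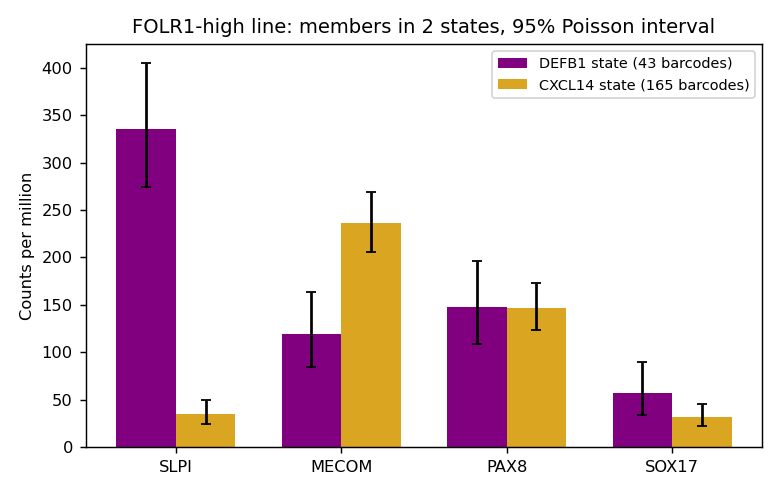
Level of SLPI, MECOM, PAX8 and SOX17 in the DEFB1 and CXCL14 states of the FOLR1-high line, in CPM with exact 95% Poisson intervals. SLPI is at 335 CPM against 35.3 CPM and MECOM at 119 CPM against 236 CPM.

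Long reads also give the transcripts behind these counts. SLPI, MUC16 and SOX17 have 1 listed transcript each, while MECOM has 8, PAX8 6, WFDC2 4 and MUC1 21. A read that fits several transcripts was shared among them by the authors' estimate, so shares were also computed from estimates of at least 0.99 in a barcode, called whole here. In a barcode with several counts of a gene, shared parts can add up to 0.99. A whole estimate there need not come from unshared reads. Positions below are those of GENCODE release 29 on GRCh38.

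WFDC2 was almost wholly 1 form. ENST00000372676 held 97.8% (94.7 to 99.2) of the 216 counts in the RARRES2-high line, 97.7% (82.2 to 99.9) of 29 in the ERBB2-high line and 94.7% (82.3 to 99.4) of 38 in the FOLR1-high line. The form ENST00000339946 lacks its exon 2 of 4, a coding exon of 144 bases at chr20:45470389-45470532 on the plus strand, which is shown because its presence sets the leading form apart.
WFDC2 exon: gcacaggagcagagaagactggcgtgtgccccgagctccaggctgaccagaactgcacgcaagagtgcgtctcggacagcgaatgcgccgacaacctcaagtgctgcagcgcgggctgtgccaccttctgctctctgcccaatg
Of 32 RARRES2-high barcodes with a single WFDC2 count that fell whole on forms with or without the exon, 31 had the exon.

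For MECOM, ENST00000464456 was the form with most counts in every line. It held 44.6% (41.7 to 47.5) of the counts in the ERBB2-high line, 27.6% (20.4 to 35.2) in the RARRES2-high line and 34.3% (30.9 to 38.0) in the FOLR1-high line. On whole estimates these shares were 57.9%, 40.3% and 52.1%, so the order of the lines was kept and the values moved. Whole estimates covered 58.4%, 22.2% and 37.1% of MECOM counts in the 3 lines, the least where MECOM was lowest. Of barcodes with a single MECOM count, 12 of 155, 4 of 87 and 15 of 225 were whole on a split by first exon. The form from the distal start, ENST00000494292, held 4.19% (3.10 to 5.48), 10.1% (5.71 to 16) and 5.47% (3.89 to 7.34), of which whole counts were 9, 3 and 1.

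A short coding exon of 27 bases also divides MECOM forms. It is exon 10 of 17 in ENST00000264674, at chr3:169107926-169107952 on the minus strand, is absent from ENST00000464456, and is printed because both versions were counted in each line.
MECOM exon: ttccaactgcctgatcagagaacttgg
Forms with it held 50.2% (47.3 to 53.1) of MECOM counts in the ERBB2-high line, 60.8% (52.4 to 68.5) in the RARRES2-high line and 58.5% (54.9 to 62.2) in the FOLR1-high line. Among barcodes with a single MECOM count that was whole, 10 of 27, 7 of 15 and 23 of 45 had the exon. The intervals of these single-count shares overlapped, from 19.4% to 57.6% in the ERBB2-high line and from 35.8% to 66.3% in the FOLR1-high line.

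For PAX8, ENST00000429538 led in every line, with 31.9% (26.9 to 37.0) in the ERBB2-high line, 40.3% (34.8 to 45.8) in the RARRES2-high line and 34.6% (30.9 to 38.4) in the FOLR1-high line. On whole estimates it held 66.7%, 72.3% and 61.5%. Its exon 10 of 12, a coding exon of 102 bases at chr2:113227155-113227256 on the minus strand, is absent from ENST00000397647. It is shown because the shared estimates and the single whole counts differed over it.
PAX8 exon: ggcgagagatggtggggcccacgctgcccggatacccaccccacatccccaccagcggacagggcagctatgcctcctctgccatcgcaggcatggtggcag
The form without it was given 14.5%, 11.2% and 13.2% of PAX8 counts by the shared estimates. Among barcodes with a single PAX8 count that was whole on this split, the exon was in 36 of 36, 29 of 29 and 60 of 60. Over all barcodes, whole counts of the form without it were 1, 1 and 8 in the 3 lines, of 72, 111 and 190 whole PAX8 counts.

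Of the members with 2 or more listed transcripts, only MECOM and PAX8 had 50 counts in each line of a pair. Neither had a transcript whose share differed by 20 points or more. The largest difference was 17.0 points for MECOM between the ERBB2-high and RARRES2-high lines, beside a median of 3.20 points over 4237 genes of which 2.45% were past 20 points. It was 10.3 points between the ERBB2-high and FOLR1-high lines, where 2.21% of genes were past 20 points, and 6.76 points between the RARRES2-high and FOLR1-high lines, where 3.26% were. PAX8 differed by 8.44, 2.70 and 5.74 points in the same pairs. These sizes depended on how shared reads were divided. On whole estimates alone PAX8 differed by 12.4, 5.20 and 10.8 points and MECOM by 5.83 points between the ERBB2-high and FOLR1-high lines, while MECOM had too few whole counts in the other pairs.

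**Figure D5:**
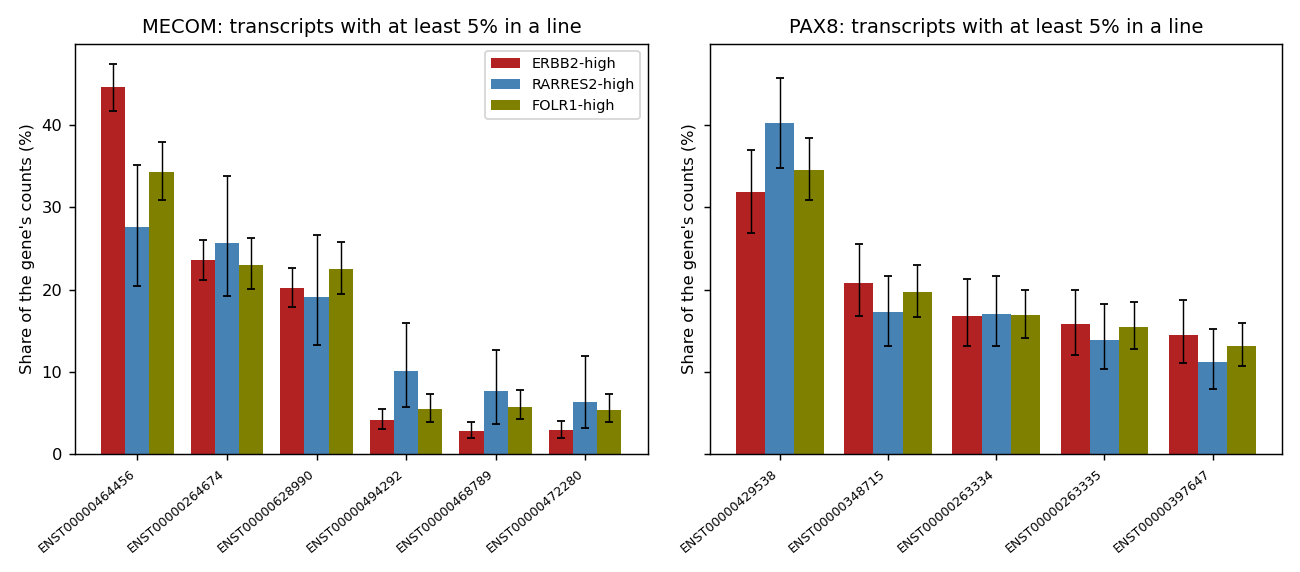
Share of each gene's counts held by each transcript in each line, for MECOM (left) and PAX8 (right), with exact 95% Clopper-Pearson intervals on rounded counts. ENST00000464456 of MECOM holds 44.6% in the ERBB2-high line and 27.6% in the RARRES2-high line, and ENST00000429538 of PAX8 leads in all 3 lines.

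MUC1 reads were mostly shared among forms. Of 62 RARRES2-high barcodes with a single MUC1 count, 3 were whole on a grouping of forms by middle exons. Whole estimates covered 34.5% of the 122 RARRES2-high MUC1 counts, and ENST00000611571 held 33.8% (25.3 to 42.7) of all counts and 56.8% of the whole ones. In MSLN the leading form in that line, ENST00000566549, held 40.2% (27.6 to 54.2) of 57 counts. WT1 forms with and without the KTS insertion could not be told apart on 13 counts.

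Related genes were taken from lists. Of 13 other mucin genes with an entry, 10 had 0 counts in the 3 lines and MUC5AC, a gel-forming mucin, alone reached 50 counts. MUC5AC was at 24.7 CPM (19.7 to 30.5; 85 counts) in the ERBB2-high line, at 0.592 CPM (2 counts) in the RARRES2-high line and had 0 counts in the FOLR1-high line. Of 13 other WAP domain genes 8 had 0 counts and none reached 50. The secreted mucin MUC5AC was thus highest in the ERBB2-high line, where the membrane mucin MUC1 was also counted, while MUC16 and MUC1 were highest in the RARRES2-high line.

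Among 22 other ovarian tumour markers with an entry, 12 were compared for the ERBB2-high over the RARRES2-high line, with 3 past 4-fold up and 5 down (5.74% and 4.72% of all entries). For the ERBB2-high over the FOLR1-high line 12 were compared, with 3 up and 4 down (7.81% and 3.45% of all entries). For the RARRES2-high over the FOLR1-high line 14 were compared, with 6 up and 4 down (8.43% and 4.88% of all entries). SPP1, encoding osteopontin, was at 544, 98.9 and 2318 CPM in the ERBB2-high, RARRES2-high and FOLR1-high lines, and CD24, a small surface sialoglycoprotein, at 438, 46.5 and 1718 CPM. KRT7, a simple epithelial keratin, was at 93.3, 692 and 6.87 CPM. EPCAM, an epithelial adhesion molecule, was at 36.3, 105 and 106 CPM. Of these 4 markers SPP1 and CD24 were highest in the FOLR1-high line and KRT7 in the RARRES2-high line, while EPCAM was lowest in the ERBB2-high line.

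Of 24 genes of Mullerian and urogenital development, 11 had at least 50 counts. LHX1, a LIM homeobox factor, was at 99.1, 76.7 and 158 CPM in the ERBB2-high, RARRES2-high and FOLR1-high lines. SALL1, a zinc-finger factor of kidney development, was at 24.98, 0.592 and 37.0 CPM. WNT7A, a ligand of Mullerian duct patterning, was at 58.1, 28.4 and 14.4 CPM. For the RARRES2-high over the FOLR1-high line 11 of these genes were compared, with 3 past 4-fold up and 4 down, beside 8.43% and 4.88% of all entries. For the ERBB2-high over the RARRES2-high line 9 were compared, with 2 up and 2 down, beside 5.74% and 4.72%, and over the FOLR1-high line 8, with 2 up and 2 down, beside 7.81% and 3.45%.

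Among relatives of SOX17, PAX8 and MECOM, SOX2 and SOX9 were highest in the RARRES2-high line. SOX2 was at 0.871, 77.6 and 3.54 CPM, SOX9 at 2.32, 54.8 and 27.7 CPM, SOX4 at 519, 117 and 338 CPM and the early response factor EGR1 at 204, 31.7 and 24.8 CPM in the ERBB2-high, RARRES2-high and FOLR1-high lines. Of the gonadal and receptor genes, ESR1, the oestrogen receptor, was at 39.5, 2.96 and 0.443 CPM, NR2F2 at 101, 127 and 210 CPM, NR2F1 at 2.61, 13.6 and 21.3 CPM and GATA6 at 13.4, 20.1 and 11.5 CPM.

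Binding partners and mesothelial markers were also counted. LGALS3, a galectin that binds mucin sugars, was at 825, 756 and 75.7 CPM in the same order, LGALS1 at 2800, 2868 and 1896 CPM, EZR, a linker of membrane proteins to actin, at 520, 733 and 221 CPM and GRN, the granulin precursor that SLPI binds, at 309, 68.7 and 145 CPM. The summed level of 9 mesothelial markers was 68.6, 325 and 19.7 CPM, led by PDPN at 281 CPM in the RARRES2-high line, where MSLN was also highest. KRT5 was at 65.1, 24.9 and 0.443 CPM. UPK3B had 76 counts in the FOLR1-high line and 0 in the others, and CALB2 had 48 of its 50 counts in the RARRES2-high line. The part of mesothelial markers in the MSLN level was not tested.

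Genes nearest to each member in their split over the 3 lines were sought among 8476 genes of at least 100 counts, as a description. Distance is the number of points by which 2 splits of summed CPM differ. For MECOM they were PARP8 (0.782 points) and PNP (1.73 points), for SLPI PMAIP1 (1.08) and TMOD1 (1.84), for WFDC2 LAMA3 (0.957) and PMP22 (1.14), and for MUC1 SAMD9 (0.656) and FGFBP1 (0.702). PAX8 lay nearest to DPM3 (0.234) and UFC1 (0.256) and SOX17 to GEMIN7 (0.177) and WASHC4 (0.313). Within 5 points there were 856 genes for SOX17 and 29 for SLPI. WFDC2 had 10.4% of its split in the FOLR1-high line, where 1 barcode called a doublet held 33 of 38 counts. The nearest genes of WFDC2 thus depend on that barcode, and they were not sought again without it.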

How the data were processed

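Estimated counts per transcript and barcode were deposited by the authors in 1 matrix for the PromethION library. The series' design text names Isosceles, a long-read quantifier, and the submitters' processing notes name Cell Ranger 6.0.1 and GRCh38 without a role. No source used here gives the aligner, the annotation release, the cell calling or whether molecular identifiers were collapsed. Only 39.8% of the matrix entries were whole, within 1e-06, but summed per gene entry 100% were, within 0.0001, so reads were shared within genes only. Those sums, rounded to whole numbers, gave CPM, barcode shares and ratios. CPM values carry exact Poisson intervals, shares exact Clopper-Pearson intervals and ratios exact conditional binomial intervals, all at 95%.

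The 10 members and all gene lists were chosen with earlier results of these data known. Named genes are the members, up to 4 genes per list with at least 50 counts in the lines, by total count, and the 2 genes nearest to each member in split over the lines; some results that these rules select are not reported here. LCN2, CEACAM6, CLDN3, the genes most correlated with SLPI and the groups by WFDC2 counts were chosen after their values were seen. Lists were other mucins, WAP domain genes, other tumour markers, Mullerian development, gonadal and receptor genes, SOX, PAX and PRDM relatives, partners and antisense genes, mesothelial markers and other cell types. Scrublet, run through scanpy 1.11.5 with an expected doublet rate of 0.02, marked 77 of 2462 barcodes, which were kept except in an alternative. Promoter motifs were counted in RefSeq's table, which holds promoters for 7 of the 10 members, and exons come from GENCODE release 29. The alternatives were stricter line rules, other scalings, fold limits and count minimums, thinning and whole estimates. Python 3.11.15, numpy 2.4.6, pandas 2.3.3 and scipy 1.17.1 were used.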

Additional observations from a re-analysis of the deposited data

Results flagged for a closer look

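Counts of the members also lay in barcodes that entered no comparison. In the 243 barcodes of at least 1000 counts that joined no line, SLPI had 1193 counts, PAX8 183, MECOM 162, WFDC2 137, MUC1 65, SOX17 55, MSLN 20 and MUC16 15. The WFDC2 level there was 85.2 CPM (71.6 to 101), beside 63.9 CPM (55.7 to 73.1) in the RARRES2-high line, with overlapping intervals. Scrublet called 37 of these 243 barcodes doublets, or 15.2%, against 1.18% to 2.33% in the lines. In the 249 barcodes of 100 to under 1000 counts, SLPI had 65 counts, PAX8 14, MECOM 11 and MUC16 4. Each of these counts is above the floor of 3 counts.

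The barcodes of no line were also divided by WFDC2 counts, into 198 with 0, 26 with 1 or 2 and 19 with 3 or more. SLPI was at 602, 798 and 1807 CPM and LCN2 at 47.3, 376 and 1044 CPM. MUC1 was at 22, 104 and 93.7 CPM, MUC16 at 4.89, 30.2 and 13.4 CPM and MECOM at 118, 60.4 and 20.1 CPM. The line gene RARRES2 was at 528, 1127 and 1399 CPM in the same groups. The part of the mix of lines in these values was not tested.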

How the results depend on the processing

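No paired analysis was possible because no comparison carries a test and there is 1 library per group. 5 members were past 4-fold in at least 1 pair of lines, and 3 were with barcodes held to 90% of line-gene counts, with a limit of 10-fold or with at least 200 counts over both lines. For a single pair and direction, 3.45% to 8.43% of all entries were called at the main setting. The share of all entries was not computed over any pair or under the alternatives, so these counts show only how the calls moved. For RARRES2-high over FOLR1-high, 3 members became 1 at 90% and 1 at 200 counts, and 5 without CLDN3 in the line set. MUC1 was still 28.1-fold higher at 90%, on 37 and 3 counts, and was not counted because the pair held under 50. For RARRES2-high over ERBB2-high, 2 became 1 at 90%, 1 at 200 counts and 0 at 10-fold. For ERBB2-high over RARRES2-high, 2 became 1 without CLDN3 and 0 at 10-fold. For ERBB2-high over FOLR1-high, 1 became 2 at 2-fold and 2 with at least 20 counts. For FOLR1-high over RARRES2-high, 0 became 1 at 2-fold, 1 with the mean CPM of single barcodes and 1 with CPM taken without mitochondrial and ribosomal protein genes; MECOM, at 3.59-fold before, was the member in each case. At 10 points instead of 20, 1 member, MECOM, was past the transcript limit for the ERBB2-high line against each other line and over all pairs, in place of 0. On whole estimates MECOM was at 5.83 points against the FOLR1-high line and PAX8 at 12.4 and 10.8 points in the pairs with the RARRES2-high line. Members counted in at least 10% of the barcodes of a line were 3 after thinning and 7 without it. The other alternatives, Scrublet doublets left out among them, kept every such count within 1.5 times. Of the CPM values, 206 stayed within the counting interval and 34 did not, 15 of these with the mitochondrial and ribosomal protein genes left out. Leaving doublets out moved WFDC2 in the FOLR1-high line from 8.42 to 0.226 CPM. Whole estimates moved 8 of 9 leading transcript shares. The 6 ratios between states or WFDC2 groups stayed within their intervals without doublets and at 2000 counts per barcode, and were not rerun under the other line rules. Depth limits MUC16, WT1 and EMX2 most, since 46 counts or fewer in a line stand behind each.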
